A study of Homo sapiens with 4 samples.

Results

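ISG15 is a small ubiquitin-like protein, and the genes described here are ISG15 itself and the enzymes that attach it to other proteins or take it off again: UBA7, UBE2L6, HERC5, HERC6 and USP18. The genes were listed by name from that pathway, and they and the gene lists read beside them were chosen with earlier results of these data known. They were read through every probe set whose only gene symbol in the platform annotation was a listed gene or its alias. This gave 6 probe sets for 5 of the 6 genes, out of 19740 genes named on the array. UBA7 (alias UBE1L) had 0 such probe sets and 2 whose annotation lists a second symbol, so no value is given for it.

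The cells were the human lung adenocarcinoma line CL1-0 and CL1-5, a more invasive line selected from it. There were 4 groups with 1 Affymetrix array each: CL1-0 with a vector expressing PSAT1, CL1-0 with the empty control vector, CL1-5 with a vector for a short hairpin RNA against PSAT1, and CL1-5 with a non-silencing hairpin vector. PSAT1 is an aminotransferase of serine synthesis. Per the labels, cells of all 4 groups were stably transduced and selected with puromycin for 2 weeks, and the labels do not say whether a line was a clone or a pool. Expression from total RNA was deposited as linear signal intensity.

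In cells exposed to type I interferon, ISG15 is among the genes most readily induced. It is joined to lysines of target proteins by an enzyme chain: UBA7 activates it (the E1 step), UBE2L6 carries it (the E2 step) and HERC5 is the main human ligase (the E3 step). HERC6 is a close relative of HERC5 that serves as the main ISG15 ligase in mouse. USP18 cleaves ISG15 from its targets and, separately, binds the interferon receptor chain IFNAR2 and damps signalling. Free ISG15 stabilises USP18 in human cells. All of these genes are themselves interferon-stimulated.

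Interferon-stimulated genes often carry an interferon-stimulated response element (ISRE) near their start, so the promoter windows of the genes are shown first. They come from RefSeq (GRCh38.p14), run from 250 bases before to 50 bases after the annotated start, and matched 4 of the 6 genes by symbol. The motif searched was GAAA, then any 2 bases, then GAAA, on both strands. Capitals mark its matches. The windows are ISG15 at chr1:1013247-1013546 (plus strand), HERC5 at chr4:88456869-88457168 (plus strand), HERC6 at chr4:88378602-88378901 (plus strand) and UBE2L6 at chr11:57567886-57568185 (minus strand).
ISG15: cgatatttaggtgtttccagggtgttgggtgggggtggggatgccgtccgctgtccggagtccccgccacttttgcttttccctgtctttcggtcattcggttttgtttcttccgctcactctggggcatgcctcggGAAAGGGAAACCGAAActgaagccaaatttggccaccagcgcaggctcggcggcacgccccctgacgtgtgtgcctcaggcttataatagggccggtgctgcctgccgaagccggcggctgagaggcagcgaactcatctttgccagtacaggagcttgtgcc
HERC5: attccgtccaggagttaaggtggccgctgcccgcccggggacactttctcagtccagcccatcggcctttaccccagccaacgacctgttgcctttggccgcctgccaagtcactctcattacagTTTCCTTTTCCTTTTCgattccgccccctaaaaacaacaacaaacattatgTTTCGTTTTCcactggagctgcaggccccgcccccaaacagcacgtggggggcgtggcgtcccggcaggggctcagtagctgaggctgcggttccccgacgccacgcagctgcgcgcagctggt
HERC6: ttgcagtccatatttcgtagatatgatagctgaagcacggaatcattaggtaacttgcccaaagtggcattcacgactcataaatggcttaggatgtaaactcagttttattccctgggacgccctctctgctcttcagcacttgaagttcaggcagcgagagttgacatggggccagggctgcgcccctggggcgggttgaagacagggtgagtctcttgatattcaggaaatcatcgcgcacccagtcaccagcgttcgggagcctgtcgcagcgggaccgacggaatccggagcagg
UBE2L6: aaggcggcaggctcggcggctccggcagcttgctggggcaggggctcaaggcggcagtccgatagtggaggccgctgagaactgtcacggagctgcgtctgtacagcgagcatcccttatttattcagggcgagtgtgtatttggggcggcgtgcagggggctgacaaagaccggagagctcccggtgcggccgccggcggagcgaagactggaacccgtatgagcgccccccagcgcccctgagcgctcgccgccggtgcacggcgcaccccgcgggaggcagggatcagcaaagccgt

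The ISG15 window held 2 overlapping matches on its own strand, the first from 113 to 104 bases and the second from 107 to 98 bases upstream of the start. HERC5 held 3 matches on the opposite strand, an overlapping pair from 125 to 110 bases and another from 74 to 65 bases upstream. The windows of HERC6 and UBE2L6 held 0, and so did the window of a second UBE2L6 start at chr11:57567623-57567922. Of all 35116 promoters in the table, 3.57% held at least 1 match, 0.259% at least 2 and 0.0370% at least 3. The second motif searched, TTCNNNGAA (the gamma-activated sequence, read on both strands), had 0 matches in these windows and was present in 7.66% of all promoters. A match is a match of letters only, and a window without one says nothing about elements elsewhere.

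PSAT1 was read first, as a check of the labels. Its brighter probe set had a signal of 5494 with the PSAT1 vector and 4214 with the empty vector in CL1-0, and 143 with the PSAT1 hairpin and 1760 with the non-silencing hairpin in CL1-5. The fall in CL1-5 was 12.3-fold, and the difference in CL1-0 was 1.30-fold. Its other probe set had 1617 with the PSAT1 vector and 1509 with the empty vector (1.07-fold), and 107 with the hairpin and 384 with the non-silencing control, a smaller fall of 3.58-fold. The arrays thus read little added PSAT1 in CL1-0, and where the probes lie relative to the introduced sequence is not known here. The labels call the cells alveolar type II. Of 8 named markers of that cell type 6 were above the floor (the pooled median of all probe sets) on every array. SFTPD and SLC34A2 were below it on all 4, as were the epithelial markers EPCAM, CDH1 and KRT19. Signals of the 6 ran from 62.3 (NAPSA, empty vector array) to 268 (ABCA3, PSAT1 vector array). Between 48.0% and 52.0% of all probe sets exceeded the floor on each array. Passing it therefore does not show that a marker is expressed or that the cells are of that type. The summed signal of 5 epithelial markers was 7399 and 6654 on the hairpin and non-silencing arrays of CL1-5, and 753 and 887 on the PSAT1 vector and empty vector arrays of CL1-0. Nearly all of it came from the keratins KRT18 (5657 and 5308 in CL1-5, 635 and 757 in CL1-0) and KRT8 (1675 and 1271, 60.4 and 77.8). Fewer than 3 of 7 named immune and endothelial markers were above the floor on any array, with summed signals of 164 on the PSAT1 vector array, 190 on the empty vector array, 258 on the hairpin array and 312 on the non-silencing array. The summed signal of 6 fibroblast markers was 415 with the PSAT1 vector and 761 with the empty vector, and 495 with the PSAT1 hairpin and 489 with the non-silencing hairpin. Of these markers only the collagen gene COL3A1 was past 2-fold in a manipulated pair, with 27.4 on the PSAT1 vector array and 312 on the empty vector array (at least 6.37-fold lower), and the other measured fibroblast markers of that pair had log2 ratios between -0.33 and -0.17. The part of these markers in the results was not tested, and fewer cells of a kind cannot be told apart from less RNA per cell.

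With 1 array per group there is no replicate, so no test was made. A gene is called "higher" or "lower", or is said to have risen or fallen, where its signals differed at least 2-fold, which is a rule of size and not a test. Signals below 49.0, the pooled median of all probe sets, were set to that floor before the log2 ratio was taken. Measured genes of a pair are those with either array above the floor. All 5 genes were above it on all 4 arrays through their brighter probe set. The exception among the 6 probe sets was the second one for HERC6 (1563659_at), with signals of 10.1, 10.5, 10.4 and 12.1 on the PSAT1 vector, empty vector, hairpin and non-silencing arrays. Probe sets differ in brightness for reasons other than RNA level, so signals were compared between arrays and not between genes.

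**Figure D1:**
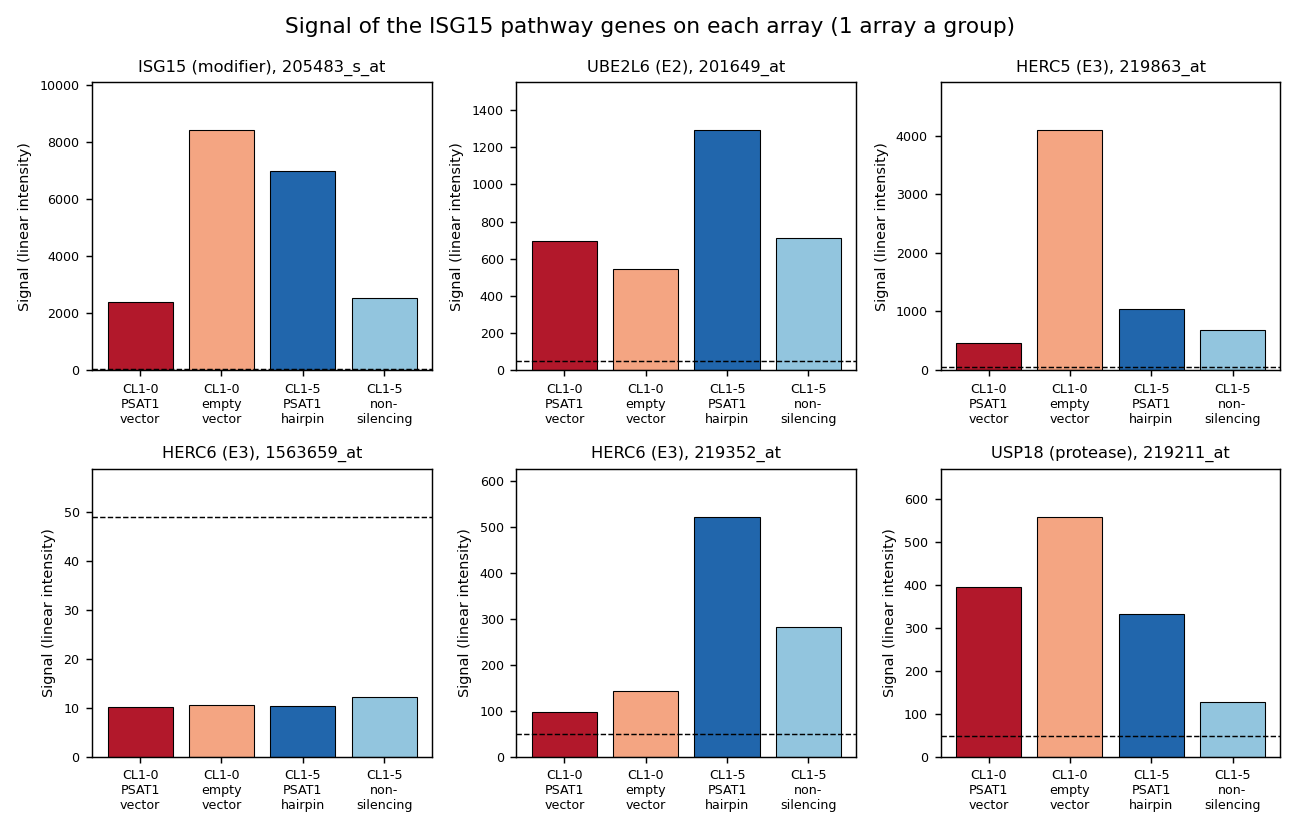
Linear signal intensity (vertical axes, from 0) of the 6 probe sets on the 4 arrays, 1 bar per array, with the floor of 49.0 as a dashed line. ISG15 and HERC5 were brightest on the empty vector array of CL1-0, UBE2L6 and HERC6 on the PSAT1 hairpin array of CL1-5, and the second HERC6 probe set stayed under the floor throughout.

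In CL1-0 with the PSAT1 vector, ISG15 and its ligase HERC5 fell, while the other 3 genes stayed under 2-fold and 1 of them, UBE2L6, had a ratio above 0. The ratio of UBE2L6, the E2 enzyme that stands between ISG15 and HERC5 in the pathway, lay within the 5th to 95th percentile of all measured genes (-0.54 to 0.79). Over all 13187 genes measured in this pair, 1.01% were lower and 2.56% higher by 2-fold or more, against 2 of 5 lower and 0 of 5 higher here. Because the genes were chosen with earlier results of these data known, such a contrast, in CL1-5 too, is a description and not independent support. The median log2 ratio of the 5 genes was -0.57, and that of all measured genes was -0.01.

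ISG15 (205483_s_at) had a signal of 2379 with the PSAT1 vector against 8403 with the empty vector. This is a 3.53-fold fall, a log2 ratio of -1.82, and 0.326% of measured genes had a lower one. UBE2L6 (201649_at), the E2 enzyme, had 693 with the PSAT1 vector against 543 with the empty vector, a log2 ratio of 0.35 that 18.4% of measured genes exceeded. It was the 1 gene of the 5 with a higher signal on the PSAT1 vector array.

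HERC5 (219863_at), the ligase, had 452 with the PSAT1 vector against 4097 with the empty vector. The 9.06-fold fall (log2 ratio -3.18) was the 14th lowest of the 13187 ratios and exceeded that of ISG15 by 1.36 on the log2 scale. HERC6 (219352_at), the relative of HERC5, had 96.4 with the PSAT1 vector against 143 with the empty vector, a log2 ratio of -0.57. USP18 (219211_at), the protease, whose gene is on chromosome 22, had 394 with the PSAT1 vector against 558 with the empty vector, a log2 ratio of -0.50. Both differences were under 2-fold, though only 4.38% and 6.07% of measured genes had lower ratios. Across the 5 genes the ratios spanned 3.53 on the log2 scale.

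In CL1-5 with the PSAT1 hairpin, all 5 genes had ratios above 0 and 2 of them, ISG15 and USP18, rose. The others stayed under 2-fold, but all 5 ratios lay above the 95th percentile of all measured genes (0.38). HERC5, the gene with the lowest ratio in CL1-0, had the smallest ratio of the 5. Over all 12821 genes measured in this pair, 0.398% were higher and 0.421% lower by 2-fold or more, against 2 of 5 higher and 0 of 5 lower here. The median log2 ratio of the 5 genes was 0.89, and that of all measured genes was 0.02.

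ISG15 had a signal of 6968 on the hairpin array and 2510 on the non-silencing array. The 2.78-fold rise (log2 ratio 1.47) was the 15th highest of the 12821 ratios. For USP18 the hairpin array gave 332 and the non-silencing array 128, a 2.60-fold rise (log2 ratio 1.38) and the 19th highest ratio. These arrays put the modifier and the protease that removes it 0.09 apart on the log2 scale, whereas in CL1-0 their ratios lay 1.32 apart.

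UBE2L6 had 1292 on the hairpin array and 713 on the non-silencing array, a log2 ratio of 0.86. HERC6 had 521 on the hairpin array and 282 on the non-silencing array, a log2 ratio of 0.89. HERC5 had 1040 on the hairpin array and 691 on the non-silencing array, a log2 ratio of 0.59. None of the 3 reached 2-fold, yet only 0.593%, 0.554% and 1.64% of measured genes, in the order UBE2L6, HERC6 and HERC5, had higher ratios. The spread of all ratios was narrower in this pair than in CL1-0: their SD, estimated from the median absolute deviation across measured genes, was 0.19 in CL1-5 and 0.33 in CL1-0. Neither value replaces a replicate. The ratios of the 5 genes spanned 0.88 on the log2 scale in CL1-5.

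**Figure D2:**
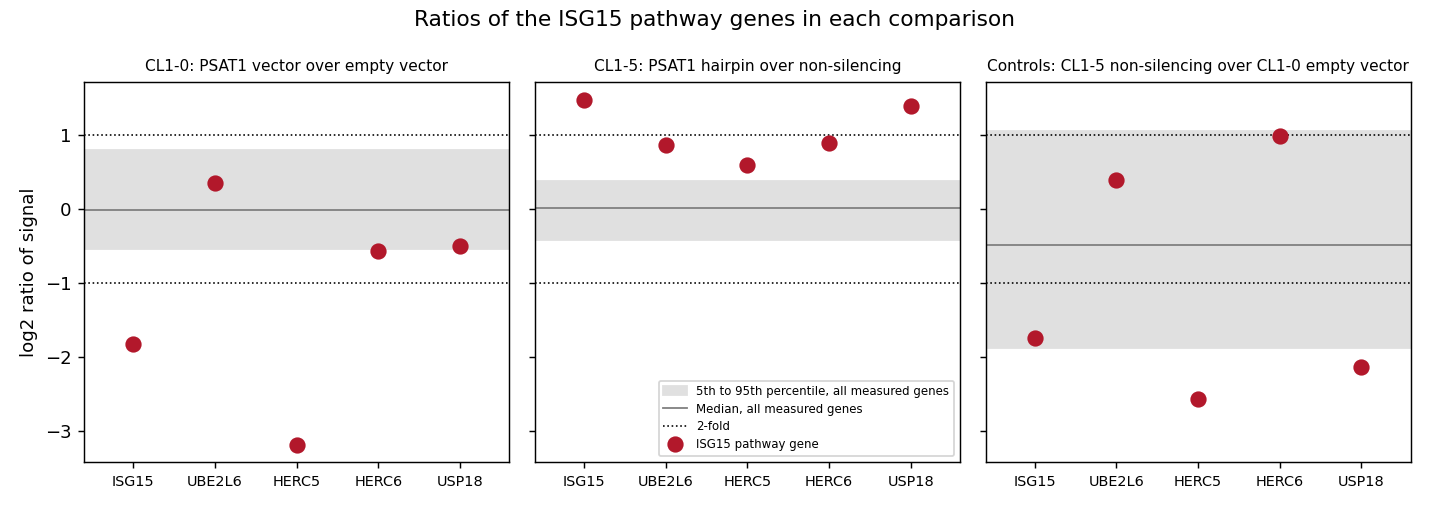
Log2 ratio of signal (vertical axis) of the 5 genes in the 3 comparisons, with the 5th to 95th percentile of all measured genes as a grey band, their median as a grey line and 2-fold as dotted lines. ISG15 and HERC5 lie far below the band in CL1-0 with HERC6 at its lower edge, all 5 genes lie above it in CL1-5, and in the comparison of the control arrays HERC5 and USP18 lie below it.

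The control arrays of the lines were set against each other to show where each pair started. In CL1-5 with the non-silencing hairpin, ISG15, HERC5 and USP18 were lower than in CL1-0 with the empty vector, while UBE2L6 and HERC6 had ratios above 0. This comparison shares the control arrays of both pairs, so its values are given side by side with theirs and are not further evidence. The lines also differ in scale: the median log2 ratio of all 13720 measured genes was -0.49, and 24.8% of them were lower by 2-fold or more and 5.25% higher (3402 and 720 genes, so that 17.5% of the calls were rises). Quantile normalization turned that split to 51.8% rises and centring each array on the median to 54.6%. The 3 lower calls of 5 stand against that background.

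HERC5 had a log2 ratio of -2.57 between the control arrays (691 in CL1-5 with the non-silencing hairpin, 4097 in CL1-0 with the empty vector). USP18 had -2.13 (128 and 558 in the same order) and ISG15 had -1.74 (2510 and 8403). All 3 were again lower after quantile normalization, at -1.88, -1.55 and -1.15 in that order. HERC6 had 0.98 (282 and 143), and UBE2L6 had 0.39 (713 and 543). Under quantile normalization these became 1.46 and 1.06, past 2-fold, and under median centring 1.59 and 1.01.

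The genes did not share 1 order over the 4 arrays, and with 1 array per group it cannot be said which neighbours in an order differ beyond their spread. For ISG15 the order from high to low was CL1-0 empty vector, CL1-5 hairpin, CL1-5 non-silencing and CL1-0 PSAT1 vector, with 3.53-fold between the ends and the last 2 signals, 2510 and 2379, close together. HERC5 had the same order with 9.06-fold between the ends. USP18 ran from the CL1-0 empty vector array through the CL1-0 PSAT1 vector array and the CL1-5 hairpin array to the CL1-5 non-silencing array, 4.38-fold in all. HERC6 ran from the CL1-5 hairpin array (521) and the CL1-5 non-silencing array (282) to the CL1-0 empty vector array (143) and the CL1-0 PSAT1 vector array (96.4), so both CL1-5 arrays were above both CL1-0 arrays. UBE2L6 was highest on the CL1-5 hairpin array and lowest on the CL1-0 empty vector array, 2.38-fold apart.

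The genes whose profile over the 4 arrays lay nearest to that of ISG15 were found among 9133 others whose brightest array reached the pooled 75th percentile (signal 213). Likeness was the root mean square difference of log2 signals, each gene centred on its own mean over the 4 arrays. The 5 nearest were CMPK2 (0.29), an interferon-induced mitochondrial nucleotide kinase, the histone H4 gene H4C8 (0.29), the Wnt antagonist DKK1 (0.41), the mitochondrial phosphatase PPM1K (0.42) and JPH1 (0.43), a junctophilin. Of the genes of the ISG15 pathway, HERC5 ranked 125th (0.64), USP18 501st (0.72), UBE2L6 3211th (0.88) and HERC6 5809th (1.03). This is a description over 4 arrays.

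**Figure D3:**
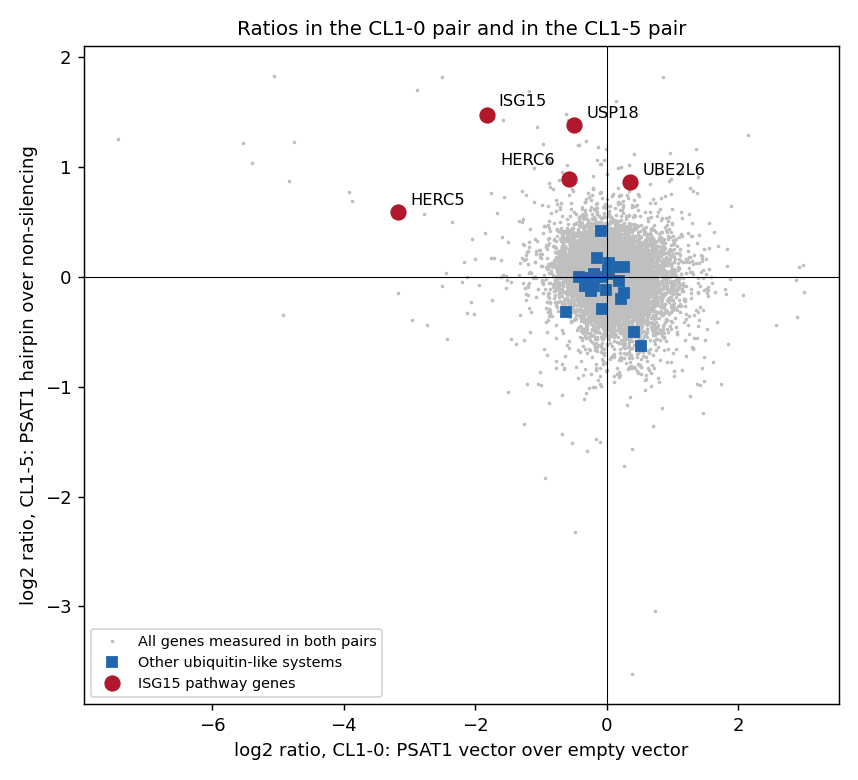
Log2 ratio in CL1-0 (PSAT1 vector over empty vector, horizontal axis) against that in CL1-5 (PSAT1 hairpin over non-silencing, vertical axis) for every gene measured in both pairs (grey), other ubiquitin-like systems (blue squares) and the 5 genes of the ISG15 system (red circles). ISG15, HERC5, HERC6 and USP18 lie in the upper left and UBE2L6 (0.35, 0.86) in the upper right, while the blue squares lie within 0.63 of 0 on both axes.

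Other ubiquitin-like systems were read in the same way, since they use the same E1, E2 and E3 chemistry for other modifiers. None of their 23 measured genes, of 38 listed, reached 2-fold in either manipulated pair. Few of all measured genes did so either: 1.01% were lower and 2.56% higher in CL1-0, and 0.421% and 0.398% in CL1-5. A count of 0 among 23 is near those shares and does not set these genes apart. Their median log2 ratio was -0.01 in CL1-0 and -0.01 in CL1-5. The largest ratios in size were those of UBA6, a second activator of ubiquitin, at -0.62 in CL1-0 (730 with the PSAT1 vector, 1120 with the empty vector), and of the giant ligase HERC1 at -0.63 in CL1-5 (137 with the hairpin, 212 with the non-silencing control). Between the control arrays 4 of the 23 were lower and 0 higher, against 24.8% lower and 5.25% higher over all measured genes. The 4 were UFM1, UBA3, HERC2 and UBE2F. Quantile normalization brought them under 2-fold, at -0.86, -0.75, -0.41 and -0.29 in that order. Under that scaling ATG7 (1.44) and ATG12 (1.07) were higher.

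Among the modifiers, ATG12, which is conjugated in autophagy, had the largest log2 ratio in size in each pair, 0.22 in CL1-0 and -0.20 in CL1-5. UFM1 had -0.15 and 0.17, and SUMO3 had 0.12 and 0.09. URM1 had -0.20 in CL1-0, and FAU, a ribosomal fusion of a ubiquitin-like protein, had 0.06 in CL1-5. Among the E2 enzymes the largest were those of UBE2N, which builds lysine-linked ubiquitin chains, at -0.42 in CL1-0, and of the autophagy enzyme ATG3 at 0.42 in CL1-5. UBE2K, UBE2F and ATG10 had -0.32, -0.30 and 0.27 in CL1-0, and ATG10, UFC1 and UBE2K had -0.15, -0.09 and -0.08 in CL1-5. Among the activating enzymes, UBA1, the main activator of ubiquitin, had -0.01 in CL1-0 and -0.12 in CL1-5, and NAE1, a subunit of the NEDD8 activator, had 0.26 and 0.09. UBA6 had -0.32 in CL1-5. The other E1 enzymes SAE1, UBA3, ATG7 and MOCS3 had 0.03, -0.07, -0.07 and 0.19 in CL1-0, and 0.12, 0.00, -0.29 and -0.04 in CL1-5. The other HERC ligases stayed under 2-fold. HERC1 had 565 with the PSAT1 vector against 394 with the empty vector (0.52), HERC2 had 1094 against 819 (0.42) and HERC4 had 543 against 641 (-0.24). In CL1-5 the ratios of HERC1, HERC2 and HERC4 were -0.63, -0.50 and -0.13. HERC1 and HERC2 thus had signs opposite to those of HERC5 in both pairs.

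Other enzymes reported to act on ISG15 had no 2-fold difference among 7 measured genes in CL1-0 and 6 in CL1-5. Over all measured genes 1.01% were lower and 2.56% higher in CL1-0, and 0.421% and 0.398% in CL1-5. TRIM25, a ligase of ubiquitin and ISG15 that is itself interferon-induced, had 1131 with the PSAT1 vector and 1099 with the empty vector (0.04), and 1028 with the hairpin and 812 with the non-silencing control (0.34). ARIH1, reported as an ISG15 ligase, had ratios of 0.04 in CL1-0 and -0.19 in CL1-5. The proteases USP5, USP13, USP14 and USP21, which can bind or cleave ISG15 in vitro, had ratios between -0.23 and 0.09 in CL1-0 and between -0.31 and -0.04 in CL1-5. USP2 had 94.0 and 96.6 with the PSAT1 and empty vectors and was below the floor on both arrays of CL1-5.

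Of 15 proteins listed as reported ISG15 targets, 13 were named by a probe set. Their genes had 1 fall among 12 measured in CL1-0 and 1 rise among 13 in CL1-5, with medians of -0.06 and 0.13. Over all measured genes 1.01% were lower and 2.56% higher in CL1-0, and 0.421% and 0.398% in CL1-5. The fall was RIGI, the cytosolic RNA sensor, with 72.1 on the PSAT1 vector array and 1057 on the empty vector array, 14.7-fold (6.02-fold as a mean over its probe sets). The rise was the antiviral GTPase MX1, with 1452 on the hairpin array and 325 on the non-silencing array, 4.47-fold. MX1 was below the floor on both CL1-0 arrays, at 17.9 with the PSAT1 vector and 21.3 with the empty vector. In CL1-5, RIGI had 813 on the hairpin array and 504 on the non-silencing array, a log2 ratio of 0.69. The kinase EIF2AK2 had ratios of 0.48 in CL1-0 and 0.15 in CL1-5, and the replication clamp PCNA had -0.06 and 0.39. The phospholipase PLCG1 had 0.49 in CL1-0 and 0.18 in CL1-5, the autophagy protein BECN1 had -0.44 and 0.13, and the kinase MAPK3 had -0.07 and 0.28.

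The receptor and transcription factor chain that induces ISG15, and to which USP18 binds, had 0 of 6 measured genes past 2-fold in either pair. The list held 8 genes. Past 2-fold over all measured genes were 1.01% lower and 2.56% higher in CL1-0, and 0.421% and 0.398% in CL1-5. IFNAR2, the docking chain for USP18, had 627 with the PSAT1 vector and 446 with the empty vector (0.49), and 265 with the hairpin and 259 with the non-silencing control (0.03). IRF9, the DNA-binding subunit of the factor ISGF3, had 238 and 272 in that order in CL1-0 (-0.19), and 1209 and 839 in CL1-5 (0.53). IFNAR1, TYK2, JAK1 and SKP2, a ubiquitin ligase subunit reported to target USP18, had ratios between -0.27 and 0.18 in CL1-0 and between -0.15 and 0.22 in CL1-5. Between the control arrays 1 of the 6 was higher in CL1-5 and 2 were lower, against 5.25% higher and 24.8% lower over all measured genes. IRF9 was 3.08-fold higher, while IFNAR1 was 2.47-fold and SKP2 3.10-fold lower. After quantile normalization the log2 ratios of IRF9, IFNAR1 and SKP2 were 2.23, -0.71 and -0.98.

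Of 6 interferon ligands named on the array, 5 (IFNE, IFNG, IFNK, IFNL1 and IFNL2) were below the floor on all 4 arrays. The exception was IFNB1, interferon beta, with 15.0 on the PSAT1 vector array and 81.9 on the empty vector array, at least 1.67-fold lower, which is under 2-fold at this floor, and 14.6 and 15.0 on the hairpin and non-silencing arrays. A floor at the 25th percentile gave at least 4.69-fold for CL1-0, past 2-fold. ITGAL, a chain of the integrin to which secreted ISG15 binds on immune cells, was below the floor on all 4 arrays, and its partner ITGB2 had log2 ratios of -0.10 and 0.01.

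**Figure D4:**
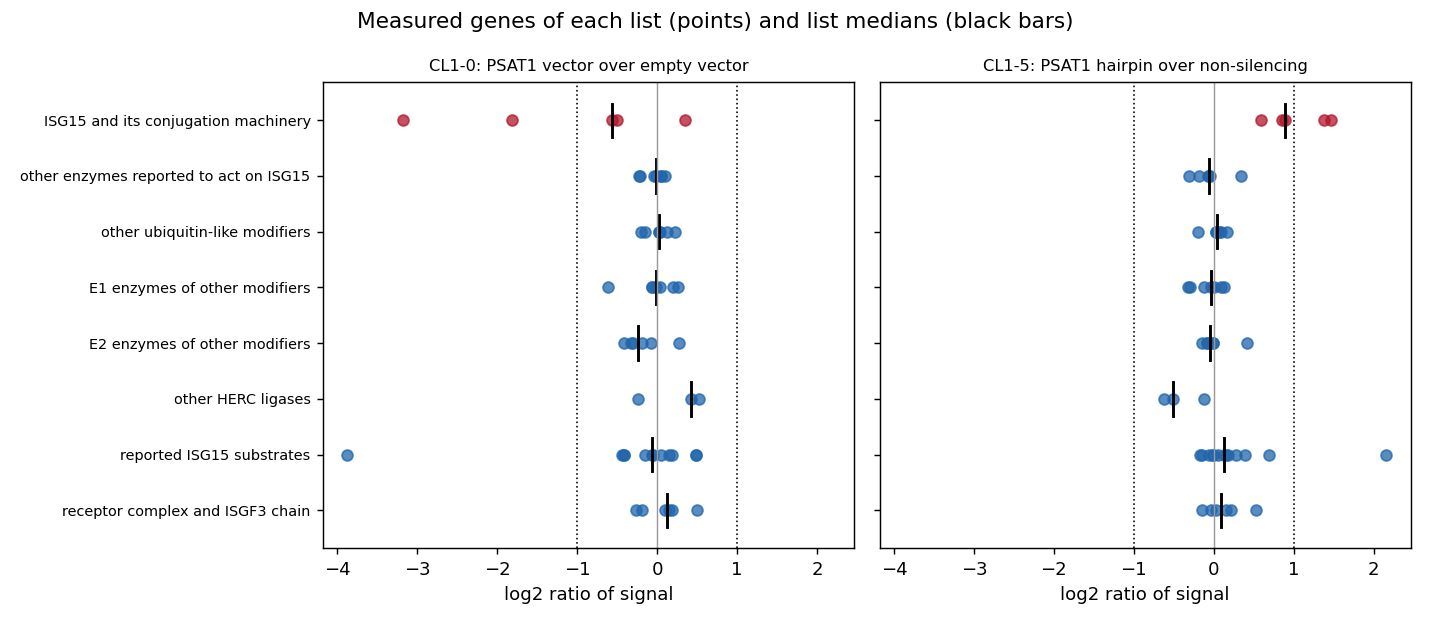
Log2 ratio of signal (horizontal axes) of each measured gene (points) in 8 gene lists, in the CL1-0 pair (left) and the CL1-5 pair (right), with list medians as black bars and 2-fold as dotted lines. The ISG15 genes have medians of -0.57 and 0.89, and outside them RIGI on the left and MX1 on the right are the points past 2-fold.

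Genes that neighbour the ISG15 pathway genes in the RefSeq table were read to see whether a change was shared along the chromosome. For the nearest protein-coding genes, 2 on each side of each pathway gene, 13 of 20 were named by a probe set. In CL1-0, 1 of 11 measured neighbours was lower and 0 were higher, against 1.01% lower and 2.56% higher over all measured genes. In CL1-5, 1 of 9 was higher and 0 were lower, against 0.398% higher and 0.421% lower. Each count of 1 rests on a single gene.

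The neighbour that fell was PPM1K, which lies beside HERC6 on chromosome 4, on the side away from HERC5. It had 139 with the PSAT1 vector against 422 with the empty vector, a log2 ratio of -1.60. In the row PPM1K, HERC6, HERC5 the outer genes fell and HERC6 between them had -0.57. In CL1-5 the same row had 0.36, 0.89 and 0.59. PPM1K is also among the 5 genes nearest to ISG15 in profile, and it was measured here as a neighbour and as a near profile from the same 4 values.

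The neighbour that rose was HES4, a transcriptional repressor of the HES family beside ISG15 on chromosome 1. Its signal was 626 on the hairpin array and 299 on the non-silencing array (log2 ratio 1.07), and 1379 with the PSAT1 vector against 1527 with the empty vector (-0.15). HES4 therefore rose beside ISG15 in CL1-5 and did not reach 2-fold where ISG15 fell in CL1-0. Between the control arrays HES4 was lower in CL1-5, with a log2 ratio of -2.35 (-1.66 after quantile normalization). AGRN, on the other side of ISG15, had -0.26 in CL1-0 and -0.15 in CL1-5. SERPING1, the complement C1 inhibitor beside UBE2L6, had 143 with the PSAT1 vector and 112 with the empty vector (0.36) and was below the floor on both CL1-5 arrays. The other measured neighbours, PERM1, INKA1, TRAIP, CAMKV, TIMM10, SMTNL1 and PEX26, had ratios between -0.41 (PEX26) and 0.22 (TRAIP) in CL1-0. In CL1-5, where PERM1 was below the floor, the other 6 had ratios between -0.37 (PEX26) and 0.29 (INKA1).

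**Figure D5:**
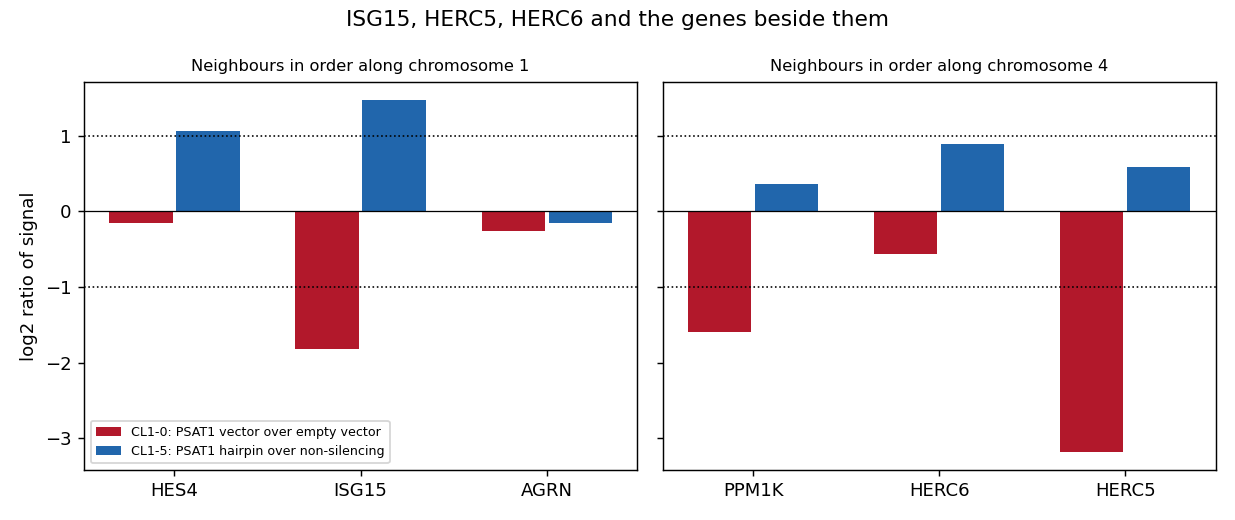
Log2 ratio of signal (vertical axis) in the CL1-0 pair (red) and the CL1-5 pair (blue) for ISG15 with its neighbours HES4 and AGRN, and for PPM1K, HERC6 and HERC5, in their order along the chromosome, with 2-fold as dotted lines. HES4 is past 2-fold in CL1-5 only (1.07 against -0.15 in CL1-0), and PPM1K (-1.60) and HERC5 (-3.18) are past it in CL1-0 with HERC6 (-0.57) between them.

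The ISRE core shown in the promoters of ISG15 and HERC5 was then counted over all genes with a promoter window. In CL1-0, 14 of 368 measured genes with a match were lower (3.80%), against 85 of 10237 without one (0.830%), the ISG15 pathway genes left out of both. In CL1-5, 14 of 381 with a match were higher (3.67%), against 24 of 9947 without one (0.241%). In the other direction the shares were 3.53% with a match and 2.46% without one for rises in CL1-0, and 0.525% and 0.392% for falls in CL1-5. Between the control arrays 8.71% of genes with a match were higher in CL1-5, against 4.79% without one. There 25.4% with a match and 25.7% without one were lower, the direction of ISG15 and HERC5 in that comparison. These shares describe genes on the same arrays, which are not independent replicates, and were not tested. For the other motif, TTCNNNGAA, the shares were 10 of 843 with a match (1.19%) against 28 of 9485 without one (0.295%) for rises in CL1-5, and 10 of 866 (1.15%) against 89 of 9739 (0.914%) for falls in CL1-0. Within the pathway, HERC5 and ISG15, with ISRE core matches, had the lowest ratios in CL1-0 (-3.18 and -1.82), below HERC6 (-0.57) and UBE2L6 (0.35) without one. In CL1-5, ISG15 had the highest ratio (1.47) and HERC5 (0.59) a lower one than HERC6 (0.89) and UBE2L6 (0.86).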

How the data were processed

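Total RNA of 4 cell groups was hybridised to 1 Affymetrix array each, from 6 ug per the labels' protocols. The authors deposited linear intensity per probe set, made with MAS5 per the submitters' processing notes. A version, a scaling target and detection calls are not given in the sources used here. Of 54675 probe sets, 41097 had 1 gene symbol and 1801 several. Symbols were updated through a RefSeq gene table (41043 matched), and 59 probe sets of Y-linked and X inactivation genes were left out. Signals were floored at the pooled 50th percentile and log2 transformed. Each gene took the values of the probe set whose mean log2 was highest. The comparisons were each manipulated array against its line's control, and the control arrays against each other. Without replicates no test was run, and the number of arrays limits the precision. The calculation recovered known changes when tested on simulated data. Those changes were larger than 2-fold, were set only in genes well above the floor and had little added noise. The simulation therefore does not show how reliable calls near 2-fold or near the floor are. The genes and lists were chosen with earlier results of these data known. Genes named were all pathway genes, PSAT1, all genes of lists of up to 9, the 4 with the largest ratio in size in each comparison and any past 2-fold in longer lists, the 5 nearest profiles and the chromosomal neighbours. For markers, and for the comparison of control arrays, the text gives sums or counts with a few genes in place of every name. Alternatives changed the scaling, the floor and the probe sets. Python 3.11.15, numpy 2.4.6, pandas 2.3.3 and matplotlib 3.10.9 were used.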

Additional observations from a re-analysis of the deposited data

Results flagged for a closer look

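UBE2L6 was the 1 gene of the 5 whose ratio of the array meant to have more PSAT1 over the array meant to have less pointed opposite ways in the lines. Its log2 ratio was 0.35 for the PSAT1 vector over the empty vector in CL1-0, and -0.86 for the non-silencing control over the PSAT1 hairpin in CL1-5. Each rests on 1 array per group and is under 2-fold, and the difference between the lines was not tested. The other 4 genes had negative ratios in both lines on this scale.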

How the results depend on the processing

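Of 87 recomputed ratios of the 5 genes, 83 kept their direction and their side of 2-fold, 4 moved past 2-fold and 0 changed sign. The 4 were UBE2L6 and HERC6 between the control arrays, under quantile normalization and median centring, where the number of these genes past 2-fold became 5 and 5, against 3. The number of listed genes outside the 5 (other ubiquitin-like systems, other ISG15 enzymes, targets, receptor chain and ligands) past 2-fold between the control arrays became 6 and 6 under these scalings, against 11. Without probe sets that can match several transcripts ISG15 has no value, and the number past 2-fold became 1 in CL1-0 and 1 in CL1-5, against 2 in each. With the floor at the 25th percentile, 2 of these listed genes were past 2-fold in CL1-0, against 1, since IFNB1 was then added to RIGI. Over all genes, rises in CL1-0 numbered 215 under quantile normalization against 337. Between the control arrays falls numbered 1201 under quantile normalization and 1195 under centring against 3402, and rises 1292 and 1440 against 720. Of the 5 genes nearest to ISG15, 4 or 5 were again nearest under other scalings and floors, alternatives chosen after seeing the data. The cause of these moves was not tested. No paired analysis was possible because each group had 1 array. Leaving out an array would leave no comparison.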

Other observations

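The deposited values share a fine structure within each line. Among signals over 100, 9.33% on the PSAT1 vector array and 9.39% on the empty vector array of CL1-0 left the same remainder of 0.084 on division by 0.5, within 0.0015. On the hairpin and non-silencing arrays of CL1-5 the shares were 9.59% and 9.54%, with a remainder of 0.213. Identical values at the same probe set numbered 1259 between the CL1-0 arrays, 1745 between the CL1-5 arrays and 0 when the control arrays were compared. What this means for ratios between the lines was not tested.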
